A study of Laccaria bicolor with 20 samples.

Results

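The gene models JGI-317181 (symbol LbPPX1), JGI-589527 and JGI-708028 of the ectomycorrhizal basidiomycete Laccaria bicolor are described here across 7 growth media. They were chosen by the JGI protein numbers (JGI.317181, JGI.589527 and JGI.708028) under which the study names polyphosphate phosphatases. They are 3 of the 23130 gene models in the files. Colonies of strain S238N grew for 2 weeks on MMN (modified Melin Norkrans) agar and then for 1 further week, at 25 °C in darkness, on fresh MMN or on MMN altered in 1 nutrient. RNA of the free-living mycelium, with no plant partner present, was sequenced in 20 libraries.

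In −N medium (3 libraries) the ammonium salts were omitted and phosphate was replenished, and in +N (3 libraries) an ammonium chloride salt was supplied in addition, at 25 mM. Glucose was 0.02% in −C (3 libraries) and 2% in +C (3 libraries). In −P (3 libraries) the phosphate salts were omitted and ammonium was replenished, and in +P (2 libraries) 25 mM KH2PO4 was added. Control MMN (3 libraries) contained 0.5% glucose, 3.67 mM KH2PO4 and 1.89 mM diammonium phosphate. All media contained 0.5% malt extract and 1% casein hydrolysate, complex ingredients that bring N and P of their own, so that −N and −P were not free of these elements.

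Polyphosphate is a linear chain of phosphate residues joined by energy-rich bonds. Fungi store it in their vacuoles, where in baker's yeast the vacuolar transporter chaperone complex makes it, and mycorrhizal fungi also move phosphorus in this form along hyphae towards the root. Polyphosphate phosphatases split the chain and release phosphate, exopolyphosphatases such as yeast Ppx1 from the chain end. For JGI-708028 the annotation text of the study also lists inositol-polyphosphate 5-phosphatase activity, so that its assignment to polyphosphate rests on the name given in the study.

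Libraries held 9.47 to 33.1 M reads, and 14725 gene models passed the expression filter, all 3 genes among them. JGI-317181 was counted with 367 to 1951 reads per library, JGI-589527 with 471 to 2451 and JGI-708028 with 1191 to 3614. Counting error alone therefore gave a coefficient of variation of at most 5.22% for any of these values. The biological coefficient of variation fitted to replicates was 8.29% for JGI-317181, 7.41% for JGI-589527 and 7.53% for JGI-708028, against 10.6% in common over all tested genes. All −N libraries, control replicate 1 and −P replicate 3 carry a letter i in their labels, whose meaning is not given. Control replicate 1 and −P replicate 3 are thus the libraries through which −N can be told from that letter.

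All 3 genes were transcribed in every medium. Levels are comparable between genes only per transcript length, as RPKM (reads divided by the length of the transcript and by the size of the library), for transcripts of 1392 bases for JGI-317181, 2649 for JGI-589527 and 4186 for JGI-708028. On this scale JGI-317181 lay between 21.4 and 42.9 RPKM over the 20 libraries, JGI-589527 between 15.9 and 27.9 and JGI-708028 between 21.9 and 42.1. JGI-317181 stood above 67.4 to 82.8% of the gene models with a read in a library, JGI-589527 above 62.8 to 75.0% and JGI-708028 above 69.9 to 82.3%. Which of the genes had the highest RPKM value differed among media. In +N JGI-317181 averaged 42.5 RPKM, JGI-589527 27.5 and JGI-708028 23.5. In −N JGI-708028 led with 34.3 RPKM, followed by JGI-317181 with 21.7 and JGI-589527 with 19.5. In control medium JGI-317181 averaged 36.9 RPKM, JGI-708028 29.6 and JGI-589527 17.1.

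Within a gene, levels are given as normalised read counts in CPM (reads out of 1 M counted reads, with TMM-scaled library sizes). JGI-317181, which carries the symbol of an exopolyphosphatase, had 28.5, 28.7 and 30.2 CPM in −N and 60.1, 64.6 and 59.5 CPM in +N. It had 37.5, 38.6 and 42.0 CPM in −C and 38.9, 30.9 and 36.5 CPM in +C. It had 53.6, 39.7 and 47.6 CPM in −P, 32.8 and 34.8 CPM in +P, and 50.0, 51.5 and 56.7 CPM in control medium. All −N libraries were below every other library, and all +N libraries were above every other library. How many tested genes show such a separation from all other media was not counted, here or for the other genes. The +P libraries were close to each other and below all −P and control libraries, whereas the −P libraries spread into the range of the control.

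**Figure D1:**
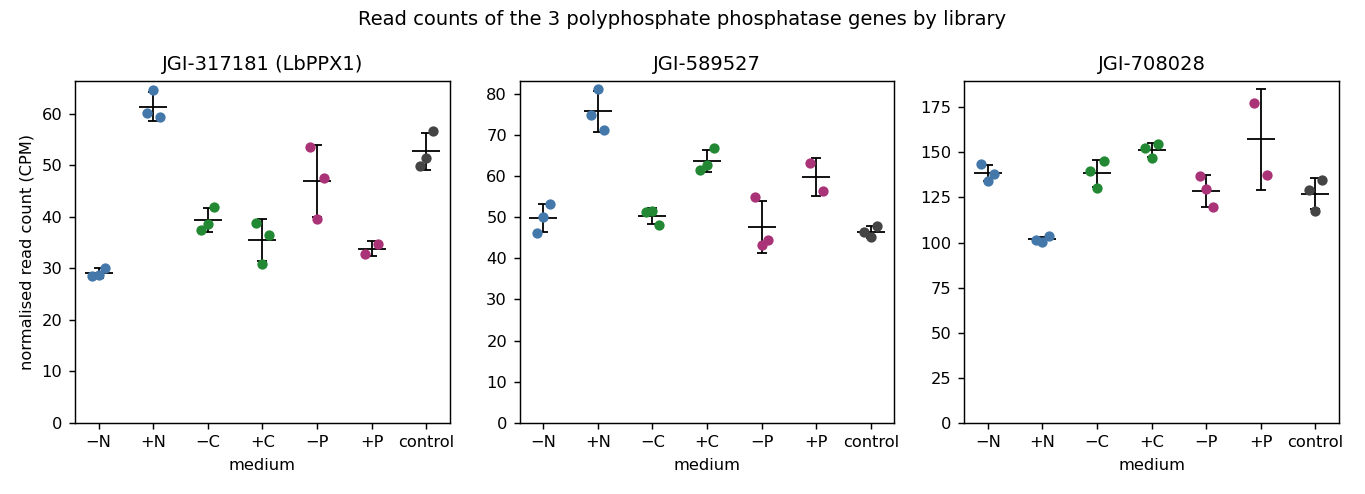
Normalised read counts (CPM, vertical axes starting at 0) of the 3 polyphosphate phosphatase genes in each medium, with 1 point per library, the mean as a horizontal bar and the SD as whiskers (n = 3, and 2 for +P). JGI-317181 was highest in +N and lowest in −N, JGI-589527 was highest in +N, and JGI-708028 was lowest in +N at 100.5 to 103.4 CPM.

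JGI-589527, which has no symbol, had 46.2, 50.1 and 53.1 CPM in −N and 74.9, 81.1 and 71.2 CPM in +N. It had 51.3, 51.6 and 48.2 CPM in −C and 61.6, 62.7 and 66.8 CPM in +C. It had 54.8, 43.3 and 44.5 CPM in −P, 63.1 and 56.5 CPM in +P, and 46.4, 45.1 and 47.8 CPM in control medium. As for JGI-317181, the +N libraries were above all others. The 3 surplus media held the 8 highest libraries of this gene, and the 3 shortage media lay near the control.

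JGI-708028, the longest of the transcripts, had 143.3, 134.3 and 138.0 CPM in −N and 101.3, 100.5 and 103.4 CPM in +N. It had 139.7, 130.5 and 145.4 CPM in −C and 152.6, 146.8 and 154.6 CPM in +C. It had 136.9, 129.5 and 119.5 CPM in −P, 177.1 and 137.6 CPM in +P, and 129.2, 117.6 and 134.7 CPM in control medium. Here the +N libraries were the lowest of all 20. The +P libraries differed more from each other than any other replicates of this gene, with 1 at the top of the whole series and 1 within the range of −N and −C.

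Variation among the 7 media was tested for each gene with edgeR's quasi-likelihood F-test, with Benjamini-Hochberg adjustment over all tested genes. The +P libraries take part in this test, and the study named these genes with their +P values. The F values and ranks below draw partly on those values and are given as a description. All 3 genes passed, against 65.4% of all tested genes. For JGI-317181 F was 28.9 (adjusted p = 4.12e-08), and 8.59% of tested genes had a larger F. For JGI-589527 F was 18.8 (adjusted p = 1.17e-06), with 14.6% of genes above it, and for JGI-708028 it was 10.7 (adjusted p = 6.32e-05), with 26.1% above it. The span from the lowest to the highest medium was moderate. It was 1.07 on the log2 scale for JGI-317181, 0.70 for JGI-589527 and 0.62 for JGI-708028, against a median of 0.72 over all tested genes. For JGI-708028 the highest medium of this span was +P.

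Media were then ordered by the mean level of each gene, and neighbours in that order were compared. Steps that involve +P are not read as tests, although the recounts of called steps given below include them. From high to low, the order for JGI-317181 was +N, control, −P, −C, +C, +P and −N. Only the step between −P and −C passed the test (log2 difference 0.26, adjusted p = 0.0452), although libraries of these media overlapped and 35.5% of all tested genes were called between them. For JGI-589527 the order was +N, +C, +P, −C, −N, −P and control, and only +C against +N passed (log2 fold change -0.25, adjusted p = 0.0275, with 30.8% of tested genes called). For JGI-708028 the order was +P, +C, −N, −C, −P, control and +N, with a single step past the threshold, that of +N against control. The step of JGI-317181 was lost, with 0 steps called, without control replicate 2, −C replicate 1 or 2, −N replicate 1, 2 or 3, −P replicate 1 or 3, +N replicate 1 or 3, or +P replicate 1 or 2, and 2 steps were called without +C replicate 2. That of JGI-589527 was lost, again with 0 steps called, without +N replicate 1 or 2, and 2 steps were called without control replicate 3, −P replicate 1 or 2, or +C replicate 3. The order was made from the same means, so neighbours lie close to each other by construction. Few called steps among them are therefore not read as a sign of a graded order.

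Surplus ammonium was compared with control medium first. Against control, 1 gene rose and 1 fell in +N, where 29.8% of all tested genes were called, 14.1% as higher and 15.7% as lower. JGI-589527 averaged 75.8 ± 5.00 CPM in +N and 46.4 ± 1.38 CPM in control medium (SD, n = 3 each), or 0.71 ± 0.09 on the log2 fold change scale (SE, edgeR adjusted p = 1.39e-06). JGI-708028 averaged 101.8 ± 1.52 CPM in +N and 127.2 ± 8.72 CPM in control medium, with a log2 fold change of -0.32 ± 0.08 (edgeR adjusted p = 0.00549). JGI-317181 averaged 61.4 ± 2.77 CPM in +N and 52.7 ± 3.56 CPM in control medium. Its log2 fold change of 0.22 ± 0.10 did not pass (edgeR adjusted p = 0.0920), although its +N libraries lay above all control libraries. Such an absence of overlap, in either direction, was found for 41.2% of tested genes. That value passed under upper quartile scaling (adjusted p = 0.0491), under a limit of 10 reads for each library (0.0413), when +N and control alone were fitted (0.0434) and without +C replicate 2 (0.0405).

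Without ammonium salts, JGI-317181 fell and the other two genes did not pass the test. It averaged 29.1 ± 0.91 CPM in −N, against 52.7 ± 3.56 CPM in control medium, with a log2 fold change of -0.86 ± 0.10 (95% interval -1.06 to -0.65, edgeR adjusted p = 1.31e-06). The −N and control libraries did not overlap, as for 47.2% of tested genes. Of all tested genes 31.7% were called in −N, 17% as lower, and 11.1% had a larger fold change than this gene in either direction. With a term for the letter i in the labels the log2 fold change was -0.82 (adjusted p = 6.13e-05). Control replicate 1, which carries that letter, had 50.0 CPM. JGI-589527 had a log2 fold change of 0.10 in −N (95% interval -0.08 to 0.28, adjusted p = 0.408). JGI-708028 had one of 0.12 (95% interval -0.05 to 0.30, adjusted p = 0.284).

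Between the extremes of ammonium supply all 3 genes differed, where 48.8% of tested genes were called, 23.6% as higher and 25.2% as lower. In +N against −N, JGI-317181 had a log2 fold change of 1.08 ± 0.10 (edgeR adjusted p = 9.87e-09), a 2.11-fold higher level in +N. JGI-589527 had one of 0.61 ± 0.09 (adjusted p = 4.91e-06) and JGI-708028 one of -0.45 ± 0.08 (adjusted p = 0.000145). JGI-317181 and JGI-589527 were thus higher and JGI-708028 was lower in +N than in −N, with no overlap of libraries for any of them, as found for 58.5% of tested genes.

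**Figure D2:**
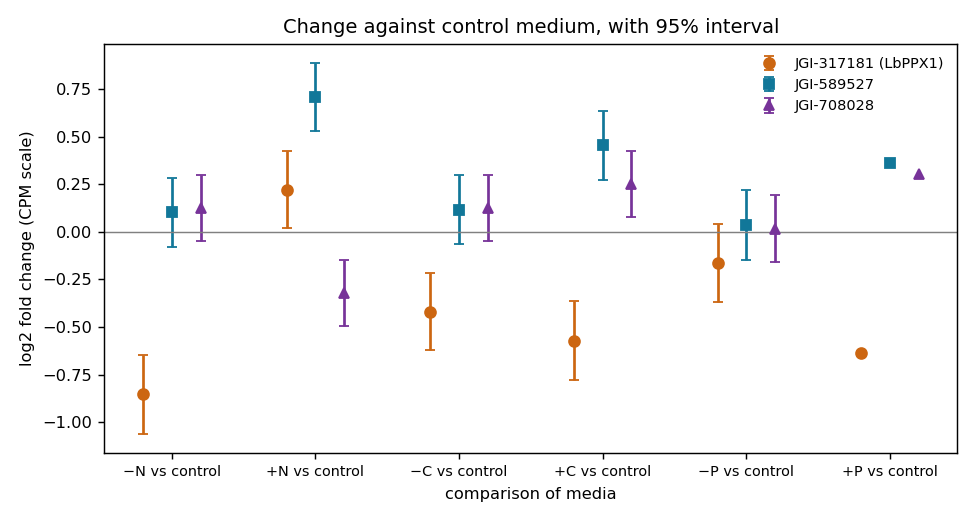
Log2 fold change of each polyphosphate phosphatase gene in each altered medium against control medium (points), with the 95% interval of the edgeR fit as whiskers, except in +P, where values are shown without an interval because the study singled the genes out there. JGI-317181 was at -0.86 in −N and JGI-589527 at 0.71 in +N, and the intervals of all 3 genes included 0 in −P.

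With reduced glucose, JGI-317181 was the 1 gene of the 3 that passed the test, in a comparison in which 37.6% of tested genes were called, 19.4% as lower. This gene averaged 39.4 ± 2.33 CPM in −C and 52.7 ± 3.56 CPM in control medium, with a log2 fold change of -0.42 ± 0.10 (edgeR adjusted p = 0.00164). JGI-589527 (log2 fold change 0.12, 95% interval -0.06 to 0.30, adjusted p = 0.315) and JGI-708028 (0.12, 95% interval -0.05 to 0.30, adjusted p = 0.269) did not pass. All −C libraries of JGI-589527 were above all control libraries, but 51.3% of tested genes were likewise without overlap.

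With surplus glucose, JGI-317181 fell and JGI-589527 rose, in a comparison in which only 9.05% of tested genes were called, 4.29% as higher and 4.75% as lower. JGI-317181 averaged 35.4 ± 4.08 CPM in +C and 52.7 ± 3.56 CPM in control medium, with a log2 fold change of -0.57 ± 0.10 (edgeR adjusted p = 0.000530). JGI-589527 averaged 63.7 ± 2.71 CPM in +C and 46.4 ± 1.38 CPM in control medium, with a log2 fold change of 0.45 ± 0.09 (edgeR adjusted p = 0.00146). JGI-708028, with 151.3 ± 4.02 CPM in +C and 127.2 ± 8.72 CPM in control medium, had a log2 fold change of 0.25 ± 0.08 that did not pass (edgeR adjusted p = 0.0675). For the last value DESeq2 gave an adjusted p of 0.0363, upper quartile scaling 0.0242 and the limit of 10 reads in each library 0.0357, and it also passed without +P replicate 1 (0.0305) or +P replicate 2 (0.0298). Libraries of +C and control medium did not overlap for any of the 3 genes, as for 23% of tested genes.

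Both glucose media had lower JGI-317181 levels than the control. In +C against −C, this gene had a log2 fold change of -0.15 (95% interval -0.36 to 0.05, edgeR adjusted p = 0.250). JGI-589527 rose in +C against −C by 0.34 ± 0.09 on the log2 scale (adjusted p = 0.00371), a comparison with 36.7% of tested genes called, 19.3% as higher. JGI-708028 had a log2 fold change of 0.13 in the same comparison (95% interval -0.05 to 0.30, adjusted p = 0.248).

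Without phosphate salts none of the 3 genes passed the test. In −P, edgeR called 0 of the 3 genes, and likewise 0 had an unadjusted p under 0.05 and 0 were called by DESeq2. Of all tested genes 0.0951% were called, that is 14, and 10.1% had an unadjusted p under 0.05. The number of genes called was between 0 and 613 with single libraries left out, highest without −P replicate 1, and 113 with DESeq2. JGI-317181 averaged 46.9 ± 6.96 CPM in −P and 52.7 ± 3.56 CPM in control medium (log2 fold change -0.16, 95% interval -0.37 to 0.04, adjusted p = 0.625). The intervals of JGI-589527 (-0.15 to 0.22 around 0.04, adjusted p = 0.940) and JGI-708028 (-0.16 to 0.19 around 0.02, adjusted p = 0.979) also included 0. For JGI-589527 and JGI-708028 the sign of the small difference turned without −P replicate 1, to -0.081 for JGI-589527 and -0.031 for JGI-708028, and for JGI-708028 also without control replicate 2, to -0.036.

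The study names these 3 genes, by their predicted function, as regulated to some extent in surplus phosphate. It gives their values against control there, so that this comparison is described without a test. Its discussion counts putative polyphosphatases among the genes whose transcripts did not respond to external phosphate. JGI-317181 averaged 33.8 ± 1.44 CPM in +P (n = 2) and 52.7 ± 3.56 CPM in control medium (n = 3), a log2 difference of -0.64. JGI-589527 averaged 59.8 ± 4.70 CPM in +P and 46.4 ± 1.38 CPM in control medium, a log2 difference of 0.36. JGI-708028 averaged 157.4 ± 28.0 CPM in +P and 127.2 ± 8.72 CPM in control medium, a log2 difference of 0.31. One gene was lower and the others were higher in both +P libraries than in any control library, and libraries of these media did not overlap for 36.1% of all tested genes. Of all tested genes 9.83% were called in +P by edgeR, from which nothing is read for the 3 genes. For JGI-708028 the size rested on 1 library, as the difference was 0.11 without +P replicate 1 and 0.48 without +P replicate 2.

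The comparison of +P with −P rests on the same +P libraries, so that it is given without a test as well. Of all tested genes 9.64% were called there by edgeR, from which nothing is read for the 3 genes. JGI-317181 averaged 33.8 ± 1.44 CPM in +P and 46.9 ± 6.96 CPM in −P, a log2 difference of -0.48. JGI-589527 averaged 59.8 ± 4.70 CPM in +P and 47.5 ± 6.35 CPM in −P, a log2 difference of 0.33. JGI-708028 averaged 157.4 ± 28.0 CPM in +P and 128.6 ± 8.72 CPM in −P, a log2 difference of 0.29. Libraries of the 2 media did not overlap for any of the 3 genes, as for 33.8% of tested genes. For JGI-708028 the difference was 0.094 without +P replicate 1 and 0.46 without +P replicate 2, so that its size again rested on 1 library.

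Between +P and +C libraries overlapped for each of the 3 genes, but the share of all tested genes with such an overlap was not computed. The log2 difference in +P against +C was -0.07 for JGI-317181, -0.09 for JGI-589527 and 0.05 for JGI-708028, again given without a test. Larger differences in either direction were found for 71.6% of tested genes beside JGI-317181, 63.3% beside JGI-589527 and 77.1% beside JGI-708028. No likeness of these media particular to the 3 genes is read from this. All comparisons against control use the same control libraries, so that their values for a gene are not independent of each other.

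**Figure D3:**
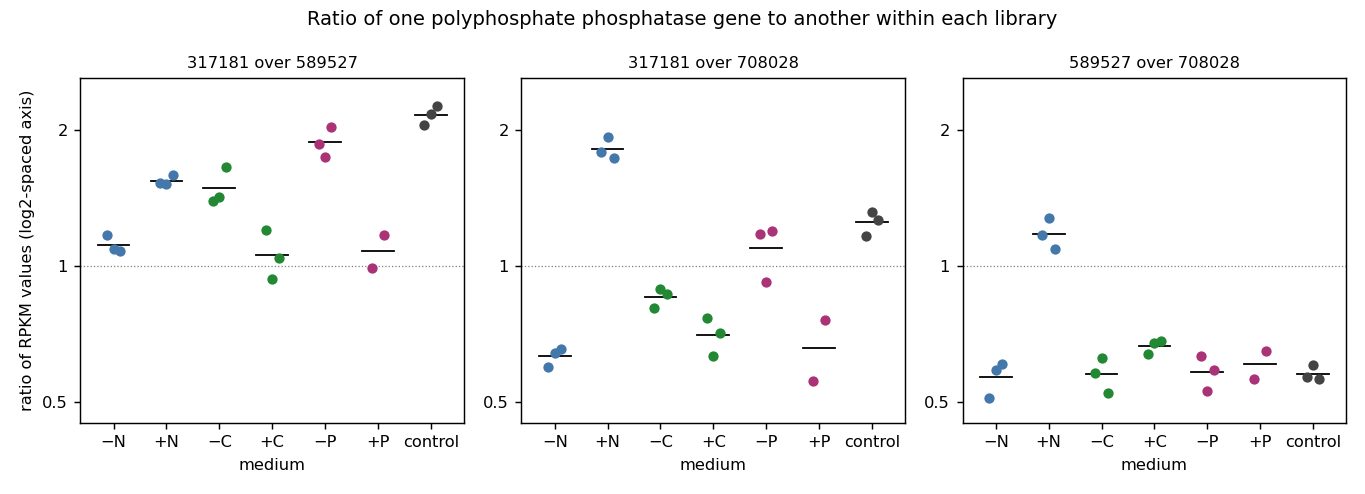
Ratio of the RPKM value of one polyphosphate phosphatase gene to that of another within each library (vertical axes log2-spaced, dotted line at equal values), by medium, with 1 point per library and the mean as a bar. The ratio of JGI-317181 to JGI-589527 was highest in control medium (mean 2.16), and that of JGI-589527 to JGI-708028 averaged 1.18 in +N and 0.569 to 0.665 in the other media.

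The ratio of RPKM values of a pair of genes within a library is free of the scaling between libraries. JGI-317181 over JGI-589527 averaged 1.06 in +C, 1.08 in +P, 1.11 in −N, 1.49 in −C, 1.54 in +N, 1.88 in −P and 2.16 in control medium. These genes were thus at about equal RPKM values in +C, +P and −N, and JGI-317181 was higher elsewhere. JGI-317181 over JGI-708028 averaged 0.633 in −N, 0.659 in +P, 0.703 in +C, 0.855 in −C, 1.10 in −P, 1.82 in +N and 1.25 in control medium. JGI-589527 over JGI-708028 was 1.18 in +N and between 0.569 and 0.665 in the 6 other media. The last ratio therefore set +N apart from the rest, while the ratios with JGI-317181 changed across several media.

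Medium accounted for 94.1% of the variance of the log2 ratio of JGI-317181 over JGI-589527 among libraries, for 95.1% with JGI-708028 as the denominator and for 94.0% for JGI-589527 over JGI-708028. Grouping 20 libraries into 7 media takes up part of the variance in any case. Shares for other gene pairs were not computed, and 65.4% of all tested genes varied among media. No trait particular to these pairs is read from the shares. In a permutation test of medium labels over the 20 libraries (one-sided, 100000 permutations), p was 1e-05 for both ratios with JGI-317181. That is the smallest value these permutations can give. For JGI-589527 over JGI-708028 it was 0.00127. Adjusted over the 3 pairs, the values were 1.5e-05, 1.5e-05 and 0.00127. This test was chosen after the values were seen and includes the +P libraries. Unlike changes of the 3 genes among media were already known by then, so that its p-values add no support and are a description. Leaving out each library in turn kept the share of variance between 91.9 and 96.8% over the 3 ratios.

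Other genes of phosphate metabolism were taken from a list of 12 gene models that the annotation text of the study describes as a phosphate transporter, phosphatases or inositol phosphate enzymes. All 12 passed the expression filter. In −N, 4 of them were higher and 4 lower than in control medium, with a median log2 fold change of 0.17, against 0.02 over all tested genes. These 8 of 12 genes stand beside 31.7% of all tested genes called in −N. The 8 calls became 4 without control replicate 3, 4 without −N replicate 1, 5 without −N replicate 3 and 4 with a term for the letter i. In +N, 3 were higher and 3 lower (median 0.03, against -0.01 over all tested genes), beside 29.8% of all tested genes called. In −C, 5 were higher and 4 lower (median -0.00044, against 0.01 over all tested genes), beside 37.6% of all tested genes called. In +C, −P and +P, 0 of the 12 were called by edgeR and 0 by DESeq2, with 2 in +C, 1 in −P and 1 in +P at an unadjusted p under 0.05. The share of all tested genes called was 9.05% for +C, 0.0951% for −P and 9.83% for +P. In +C, 1 gene of the list was called without control replicate 1, 2 without +C replicate 1 and 1 with the letter term. In +P, 1 was called without +P replicate 1.

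**Figure D4:**
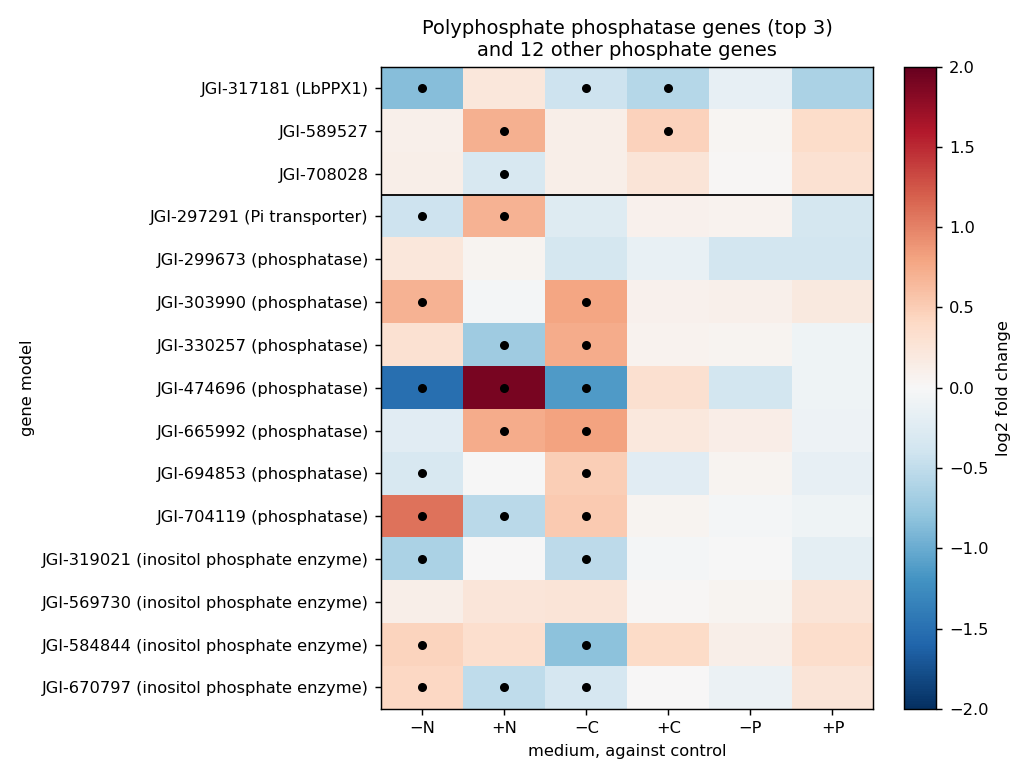
Log2 fold change against control medium (colour, from -2 to 2) of the 3 polyphosphate phosphatase genes, above the line, and of the 12 other phosphate genes, below it, in the 6 altered media. Black dots mark an edgeR adjusted p under 0.05. For the top 3 genes in +P no dots are drawn whatever the fit gave, because the study singled the genes out there. The strongest colours are those of JGI-474696, at 1.90 in +N and -1.52 in −N. No dot stands in −P or, among the 12 other genes, in +P.

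The largest changes of the list belonged to JGI-474696, annotated as a histidine acid phosphatase, an enzyme type that frees phosphate from organic esters. It averaged 17.5 ± 1.08 CPM in −N and 50.1 ± 11.1 CPM in control medium (log2 fold change -1.52 ± 0.13, edgeR adjusted p = 1.66e-08). In +N it averaged 187.1 ± 16.04 CPM, with a log2 fold change of 1.90 ± 0.12 (adjusted p = 7.79e-11), and in −C 22.9 ± 0.32 CPM, one of -1.13 ± 0.12 (adjusted p = 2.42e-07). It fell in −N and −C, as did JGI-317181, and rose in +N. JGI-704119, with alkaline phosphatase activity, rose in −N (log2 fold change 1.09 ± 0.15, adjusted p = 1e-05). JGI-665992, with acid phosphatase activity, rose in +N (0.74 ± 0.12, adjusted p = 5.73e-05). JGI-584844, a diphosphoinositol-polyphosphate diphosphatase, fell in −C (-0.81 ± 0.15, adjusted p = 0.000188). JGI-297291, the list's only gene annotated with inorganic phosphate transmembrane transporter activity, was picked for its role after its values were seen. It fell in −N (-0.42 ± 0.16, adjusted p = 0.0439) and rose in +N (0.70 ± 0.15, adjusted p = 0.00122).

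The gene models most like each gene were taken by the Pearson correlation of log2 CPM over the 20 libraries, which share their media and scaling, so that the values are a description. For JGI-317181 they were JGI-308976 (r = 0.96), JGI-481091 (0.96) and JGI-644509 (0.94). For JGI-589527 they were JGI-658987 (0.93), JGI-305059 (0.92) and JGI-399733 (0.92), which has the symbol LbPLS1. For JGI-708028 they were JGI-701907 (0.94), JGI-681787 (0.92) and JGI-642496 (0.91). The size of the changes differed even with such likeness, as JGI-658987 averaged 1053 CPM in +N and 429 CPM in control medium. JGI-308976 averaged 110.7 CPM in +N and 79.1 CPM in −N, a narrower span than that of JGI-317181.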

How the data were processed

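RNA was sequenced from both ends over 150 bases. The authors trimmed the reads and mapped them with CLC Genomics Workbench to JGI's v2 transcript models of L. bicolor. The deposited raw read counts are whole numbers per gene model. Whether they are unique or total reads and whether strand was used is not given in the sources used here, so that counts of near-identical or overlapping genes are uncertain. RPKM values, also made by the authors, were used here for levels between genes and for ratios, not for count tests.

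Groups came from the labels. Total counts were 9.47 to 33.1 M per library, and 0 of 19 replicate pairs were identical. Counts of all 20 libraries entered 1 fit of edgeR 4.0.16 in R 4.3.3 (TMM, default expression filter, no covariate, quasi-likelihood F-test). P-values were adjusted by Benjamini-Hochberg over 14725 genes, at a threshold of 0.05. Standard errors came from the F statistic. In this fit, p-values compare differences between media with the spread between replicate libraries, estimated from all 20 libraries and steadied across genes. Alternatives were RLE or upper quartile scaling, no filter or at least 10 reads in each library, DESeq2 1.42.0, a replicate block, a term for the letter i, only the compared groups, and each library left out. The tests were checked on simulated data.

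Per the rule for named genes, the report names the 3 genes, the 2 largest changes per medium among called genes of the phosphate list, and the 3 gene models with the highest correlation (log2 CPM, prior count 2). JGI-297291 is named outside this rule. The genes and lists were chosen with earlier results of these data known. The text of the study singles the 3 genes out for +P against control, so that no test of these libraries against another medium is given for them. By number 6580 of 23130 identifiers, and 1 of the 3 genes, matched a RefSeq locus tag of another assembly, which gave symbols only. A search for further polyphosphate and phosphate transport names covered only the symbols and synonyms of the 351 gene models with a symbol of their own. It gave 0 genes beside LbPPX1. The paper describes putative Pht1 phosphate transporters and vacuolar transporter complex subunits of this fungus, which the search did not find.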

Additional observations from a re-analysis of the deposited data

How the results depend on the processing

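For the 3 genes and their ratios 729 tested values were recomputed, with pairwise comparisons of +P and the counts of steps left out. The F-tests and permutation tests among them still include the +P libraries. Of the 729, 717 kept their direction and side of the threshold, 9 gained a call, 0 lost one and 3 turned round. F values and variance shares are never negative, so that for them only the side of the threshold could change. The ratios were recomputed only with single libraries left out. For JGI-317181 in +N, the log2 fold change was 0.24 with upper quartile scaling, 0.25 with at least 10 reads in each library and 0.22 with only the compared groups, each past the threshold (adjusted p = 0.0413 to 0.0491). For JGI-708028 in +C, it was 0.27 with upper quartile scaling, 0.25 with at least 10 reads and 0.25 with DESeq2. In +P against −P, read without a test, the log2 difference of JGI-708028 was 0.29 with RLE scaling and DESeq2, 0.34 with upper quartile scaling and 0.30 with at least 10 reads, that of JGI-589527 was 0.30 with a term for the letter i and 0.34 with only the compared groups, and that of JGI-317181 was -0.47 with only the compared groups. The cause was not tested.

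Replicate numbers did not pair the libraries, since deviations of same-numbered libraries correlated between -0.38 and 0.30 over 57 pairs. Those of differently numbered libraries correlated between -0.36 and 0.46 over 114 pairs, highest for +C replicate 1 with +N replicate 2. Control replicate 3, −C replicate 3, −P replicate 1, +C replicate 1, +N replicate 2 and +P replicate 1 all correlated positively with each other, at 0.12 to 0.46. Each also had the lowest TMM scaling factor of its medium. These libraries of different media thus deviated together, which the fit without covariate does not model. What they share was not tested. Among them are +P replicate 1, on which the size for JGI-708028 rested, and −P replicate 1. With the replicate block, the log2 difference in +P against −P was 0.29 for JGI-708028 and 0.32 for JGI-589527, and the step called between neighbouring media for JGI-317181 was lost, leaving 0. That count was also 0 without a filter and with the letter term, 2 with upper quartile scaling and with at least 10 reads, and 0 to 2 with single libraries left out. For JGI-589527 it was 2 with RLE scaling, upper quartile scaling, at least 10 reads, DESeq2 and only the compared groups, and 0 to 2 with single libraries left out.

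With single libraries left out, log2 fold changes ranged from 0.18 to 0.29 for JGI-317181 in +N, from 0.20 to 0.29 for JGI-708028 in +C, from 0.11 to 0.48 for JGI-708028 in +P, and, in +P against −P, from -0.58 to -0.37 for JGI-317181, 0.24 to 0.44 for JGI-589527 and 0.094 to 0.46 for JGI-708028. In −P they ranged from -0.081 to 0.10 for JGI-589527 and from -0.036 to 0.067 for JGI-708028, the sign turning to -0.081 for JGI-589527 and -0.031 for JGI-708028 without −P replicate 1, and to -0.036 for JGI-708028 without control replicate 2. Of all tested genes, the 14 calls in −P became 0 with upper quartile scaling, at least 10 reads, the block or only the compared groups, 22 with the letter term, 63 without a filter, 113 with DESeq2 and 613 without −P replicate 1. The letter term gave 2884 calls in −N, against 4673, and 4719 in +N against −N, against 7188. Only the compared groups gave 660 calls in +C, against 1332, 964 in +P, against 1447, and 562 in +P against −P, against 1419. Without +P replicate 1 the count in +P was 702, and in +P against −P 898. Upper quartile scaling moved the median of all genes in +N against −N to -0.10.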
